A study of Mus musculus with 22 samples.

Results

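The enzymes that add acetyl groups to histones, and those that remove them, were followed in mouse liver as 10 genes: the acetyltransferases Ep300, Crebbp, Kat2a and Kat2b, the deacetylases Hdac1, Hdac2, Hdac3, Hdac5 and Sirt1, and Ncor1, which encodes a corepressor that holds a deacetylase on chromatin. They were chosen by symbol, as writers and erasers of the acetyl mark that the study measured, and all 10 were found among 23227 genes with mRNA counts and among 23167 gene promoters with counts of H3K27ac (histone H3 acetylated at lysine 27, a mark of active promoters and enhancers). All 10 also passed the filter on low counts, which kept 12909 genes and 20891 promoters. Livers came from wild-type C57BL/6J mice aged 24 weeks that had eaten chow throughout, or that had been switched at 8 weeks of age to a high-fat diet kept up over 16 weeks. All were fasted overnight before the liver was frozen. There were 3 mRNA and 3 H3K27ac libraries for each diet, and the sex of the mice is not given in the sources used here. The labels do not say that each library is a separate mouse, so the p-values measure only the spread between these libraries.

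Acetyl groups on histone tails loosen chromatin and are read by bromodomain proteins, and the mark is set by the balance of writers and erasers. The paralogs p300 (Ep300) and CBP (Crebbp) place most H3K27 acetylation. GCN5 (Kat2a) and PCAF (Kat2b) are paralogs that work in the SAGA and ATAC coactivator complexes. HDAC1 and HDAC2 are paralogs in the SIN3, NuRD and CoREST corepressors, HDAC3 works with NCOR1, HDAC5 is a class IIa deacetylase that shuttles between nucleus and cytoplasm, and SIRT1 needs NAD and thus follows the state of metabolism. In liver, loss of HDAC3 leads to fat accumulation, and class IIa deacetylases and SIRT1 take part in the fasting response.

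Promoter sequences are shown for Kat2b and Hdac2, whose mRNA passed the test, for Kat2a, the paralog of Kat2b, and for Hdac5, which passed on the authors' normalized counts with a sign opposite to that from raw counts. Each is the 250 bases before the start site in RefSeq on GRCm38.p6, on the strand of the gene, with CpG dinucleotides in capitals. For Kat2b, which has 2 start sites in that table, the upstream one is shown. The deposited promoter counts are on the older build mm9 and the width of their windows is not stated, so these stretches stand for the promoters and are not the counted windows.
Kat2b, chr17:53566721-53566970, plus strand: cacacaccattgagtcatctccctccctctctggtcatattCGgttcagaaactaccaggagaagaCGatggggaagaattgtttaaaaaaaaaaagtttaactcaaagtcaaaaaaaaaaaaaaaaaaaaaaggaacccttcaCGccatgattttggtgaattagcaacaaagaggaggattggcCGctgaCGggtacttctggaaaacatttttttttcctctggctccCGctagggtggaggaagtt
Kat2a, chr11:100712468-100712717, minus strand: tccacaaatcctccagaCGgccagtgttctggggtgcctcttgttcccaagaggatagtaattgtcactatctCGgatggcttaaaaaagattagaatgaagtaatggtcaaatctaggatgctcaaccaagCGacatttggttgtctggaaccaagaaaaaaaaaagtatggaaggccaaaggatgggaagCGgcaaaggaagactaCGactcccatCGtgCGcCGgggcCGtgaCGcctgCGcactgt
Hdac2, chr10:36974294-36974543, plus strand: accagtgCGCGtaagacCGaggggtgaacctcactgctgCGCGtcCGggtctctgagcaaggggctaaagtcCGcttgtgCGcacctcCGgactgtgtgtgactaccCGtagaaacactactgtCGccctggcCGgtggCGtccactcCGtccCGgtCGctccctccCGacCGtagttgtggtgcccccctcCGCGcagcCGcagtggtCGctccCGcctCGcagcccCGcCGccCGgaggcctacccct
Hdac5, chr11:102230173-102230422, minus strand: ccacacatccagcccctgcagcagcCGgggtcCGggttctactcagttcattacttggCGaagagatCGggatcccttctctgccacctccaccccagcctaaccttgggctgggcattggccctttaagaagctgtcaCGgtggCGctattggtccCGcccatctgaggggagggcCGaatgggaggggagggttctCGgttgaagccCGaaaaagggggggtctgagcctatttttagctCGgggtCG

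These promoters differed in CpG content. Over 32851 RefSeq windows of this length the median was 6 CpGs. The Kat2b window held 6, the Kat2a window 11 and the Hdac5 window 12, while that of Hdac2 held 27, more than 91.4% of all windows. Ep300 had 25, Sirt1 39 and Crebbp 44. Ncor1 had 2 start sites, with 34 CpGs before 1 of them and 2 before the other. Windows were matched for 8 of the 10 genes, without Hdac1 and Hdac3. The GC box GGGCGG, searched on both strands, was found before Ep300, Crebbp, Hdac2, Hdac5, Sirt1 and Ncor1 and in 32.7% of all windows. The CCAAT box CCAAT, on both strands, was found before Kat2b and Hdac5 and in 33.8% of all windows. The E-box CACGTG, which reads the same on both strands, occurred 2 times before Sirt1 and in 6.02% of all windows. The cAMP response element TGACGTCA (1.55% of all windows) and the TATA box TATAAA (12.4%, both strands) were in none of the windows of these genes.

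The mRNA libraries held 19016275 to 45741794 counts, and those of H3K27ac from 1967613 to 4964403 counts at promoters. Chow replicate 1 was the deepest mRNA library. Hepatocyte markers summed to between 101011 and 124210 CPM (counts scaled to a library total of 1000000 after TMM factors) in every library, with 1 of 10 raised and 3 lowered. Markers of other cells were also present. The 16 markers of exocrine pancreas summed to 2110, 927 and 352 CPM in chow replicates 1 to 3 and to 23.2, 210.9 and 10.4 CPM on the high-fat diet, 12 of 14 tested fell and none rose, none was at 0 on chow and 1 was at 0 on the high-fat diet. Markers of macrophages summed to between 218 and 415 CPM on chow and between 258 and 497 CPM on the high-fat diet, with 1 of 9 raised, and endothelial markers to between 251 and 372 and between 272 and 475 CPM, with 1 of 10 raised. Stellate cell markers ran from 315 to 328 CPM on chow and from 207 to 491 CPM on the high-fat diet, with 2 raised and 1 lowered of 9 tested. Lymphocyte markers stayed under 18.0 CPM with none of 7 tested past the threshold. Erythroid and platelet markers summed to between 69.6 and 96.3 CPM on chow and between 97.5 and 128.6 CPM on the high-fat diet. Of these, 1 of 2 tested was raised, and 4 globin genes were listed at 0 in all libraries. Without chow replicate 1, the library with the highest pancreas sum, the log2 fold change of Kat2b was -0.43 (edgeR adjusted p = 0.0206), and 2 of the 10 genes passed (Kat2b and Hdac3), beside 3629 of 13099 genes tested. Chow replicates 2 and 3 were themselves above every high-fat-diet library in that sum, so this fit keeps a difference in it. The part of these cells in the mRNA differences was not tested.

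The mRNA comparison asked which of these genes differed between the diets. In the edgeR quasi-likelihood test 2 of the 10 passed an adjusted p of 0.05, and both fell on the high-fat diet: Kat2b, 1.34-fold lower, and Hdac2, 1.27-fold lower. None rose. Of all genes tested 35.6% passed, 18.0% as higher and 17.6% as lower on the high-fat diet. Whether the share among these 10 genes differs from that was not tested, and it changed with the scaling. When libraries were scaled by total counts 4 of the 10 passed, beside 4451 of 12909 genes. After cyclic loess 4 passed, beside 4670 of 12909. The median log2 fold change of the 10 was -0.07, and that of all genes 0.02. Levels are in CPM, and log2 fold changes are of the high-fat diet against chow, with their standard error (SE). In whole liver, fewer cells of a type and less RNA per cell cannot be told apart.

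Among the acetyltransferases, Kat2b had 117, 109 and 130.2 CPM in chow replicates 1 to 3 and 84.6, 88.7 and 93.6 CPM in high-fat-diet replicates 1 to 3. Every high-fat-diet library lay below every chow library. The log2 fold change was -0.42 (SE 0.087, 95% interval -0.62 to -0.22, edgeR adjusted p = 0.00723). This call held under all 13 other settings and left-out libraries that were run, with log2 fold changes between -0.48 and -0.27 and a highest adjusted p of 0.0393.

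Kat2a, the paralog of Kat2b, had a log2 fold change of the opposite sign. It had 17.6, 15.1 and 16.4 CPM on chow and 22.4, 19.7 and 18.6 CPM on the high-fat diet. The libraries did not overlap, but the difference did not pass the test (log2 0.30, SE 0.11, 95% interval 0.06 to 0.54, edgeR adjusted p = 0.0543). It passed when libraries were scaled by total counts (adjusted p = 0.0154), after cyclic loess (adjusted p = 0.0378) and when high-fat-diet replicate 3 was dropped (adjusted p = 0.0412). On the authors' normalized counts it was 0.08 on the log2 scale and did not pass (limma adjusted p = 0.488).

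Ep300 was at 45.1, 46.5 and 48.7 CPM on chow and 39.3, 45.2 and 48.8 CPM on the high-fat diet, and the diets overlapped. Its log2 fold change was -0.07 (SE 0.095, 95% interval -0.29 to 0.14, edgeR adjusted p = 0.575). Crebbp, its paralog, was at 23.6 CPM in each of the 3 chow libraries and at 24.8, 28.6 and 29.6 CPM on the high-fat diet. All high-fat-diet libraries were above the chow libraries, and the log2 fold change was 0.23 (SE 0.09, 95% interval 0.03 to 0.44, edgeR adjusted p = 0.0757). Crebbp passed without high-fat-diet replicate 1, the lowest of its diet (log2 0.30, adjusted p = 0.0157).

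**Figure D1:**
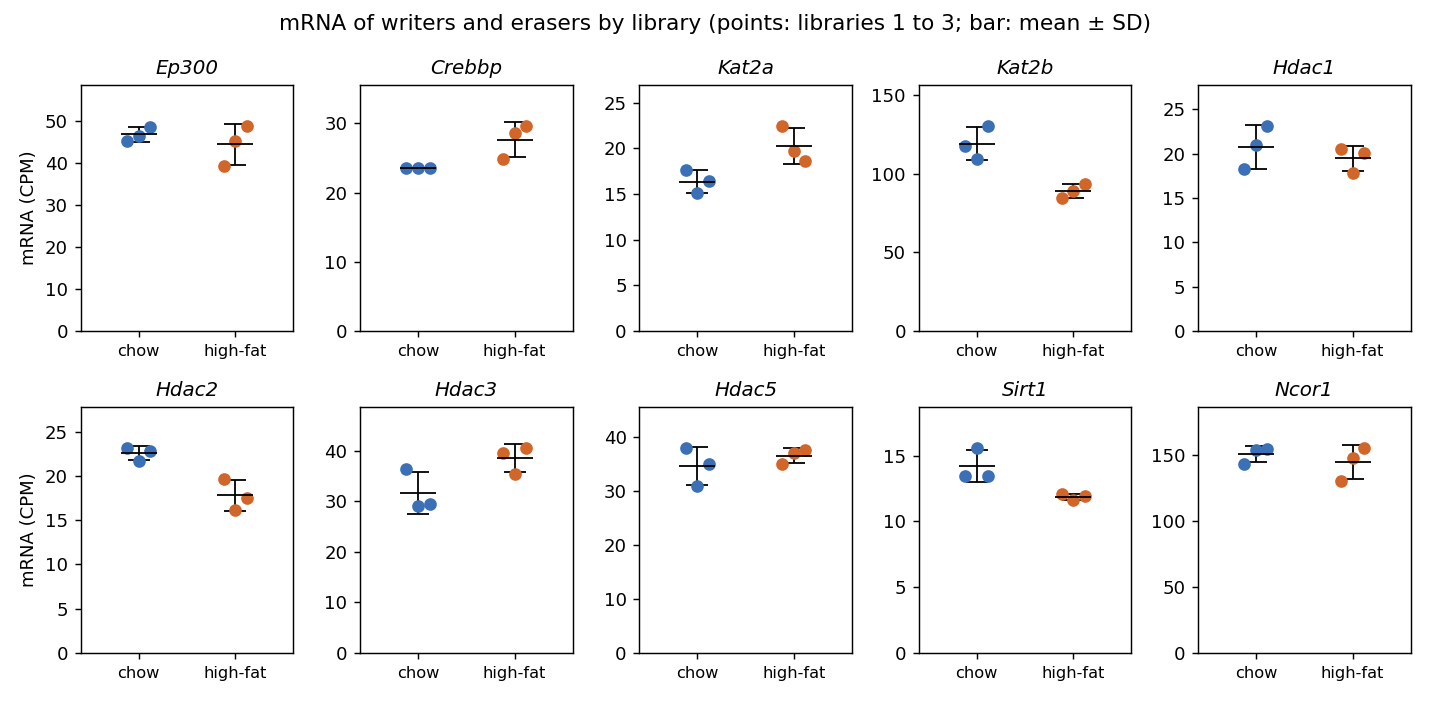
mRNA of the 10 genes in each library, in CPM from 0 on the vertical axis, for chow (left) and the high-fat diet (right); points are libraries, the long bar is the mean and the whiskers are 1 SD. Kat2b and Hdac2 are lower in all 3 high-fat-diet libraries than in any chow library, while Ep300, Hdac1, Hdac3, Hdac5 and Ncor1 overlap between the diets.

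Among the deacetylases, Hdac2 had 23.2, 21.7 and 22.9 CPM on chow and 19.7, 16.2 and 17.5 CPM on the high-fat diet, with no overlap. Its log2 fold change was -0.34 (SE 0.097, 95% interval -0.57 to -0.12, edgeR adjusted p = 0.0247). The call ended without any single library of chow, and without high-fat-diet replicate 2 or 3, with adjusted p from 0.0514 to 0.0916, while the log2 fold change stayed between -0.42 and -0.28 with each library left out in turn. On the authors' normalized counts it was -0.16 (limma adjusted p = 0.157).

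Hdac1, which shares its complexes with Hdac2, had 18.2, 20.9 and 23.1 CPM on chow and 20.5, 17.8 and 20.1 CPM on the high-fat diet. The diets overlapped and the log2 fold change was -0.09 (SE 0.11, 95% interval -0.34 to 0.17, edgeR adjusted p = 0.564).

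Hdac3, the catalytic partner of NCOR1, had 36.5, 29.1 and 29.5 CPM on chow and 39.6, 35.3 and 40.6 CPM on the high-fat diet. Chow replicate 1 was above the lowest high-fat-diet library, and the log2 fold change of 0.28 did not pass (SE 0.11, 95% interval 0.02 to 0.53, edgeR adjusted p = 0.0832). Without chow replicate 1 it was 0.39 and passed (adjusted p = 0.0273). It also passed with total counts (adjusted p = 0.0419), after cyclic loess (adjusted p = 0.046) and on the authors' normalized counts (log2 0.33, limma adjusted p = 0.0391).

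Sirt1, the NAD-dependent member, had 13.5, 15.6 and 13.5 CPM on chow and 12.1, 11.6 and 11.95 CPM on the high-fat diet. All 3 high-fat-diet libraries were below chow, and the log2 fold change of -0.25 did not pass (SE 0.1, 95% interval -0.49 to -0.02, edgeR adjusted p = 0.0815). It passed in none of the 13 alternatives. Ncor1, the corepressor, had 144, 154 and 155 CPM on chow and 131, 148 and 156 CPM on the high-fat diet, overlapping, with a log2 fold change of -0.06 (SE 0.086, 95% interval -0.26 to 0.14, edgeR adjusted p = 0.624).

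Hdac5 passed the test under the authors' scaling with a sign opposite to that from raw counts. From raw counts it had 37.9, 30.8 and 35.0 CPM on chow and 34.9, 36.9 and 37.5 CPM on the high-fat diet, with overlap, and a log2 fold change of 0.07 (SE 0.094, 95% interval -0.14 to 0.29, edgeR adjusted p = 0.576). In the authors' normalized counts the lowest, middle and highest chow values were 1883, 2092 and 2122, and those of the high-fat diet were 1554, 1671 and 1723. There every high-fat-diet value lay below chow, and Hdac5 was lower by a log2 of -0.30 (SE 0.073, limma adjusted p = 0.0171). The authors' deposited table likewise gives -0.30 (SE 0.085) with an adjusted p of 0.00241. Between the diets, the authors' scaling moved Hdac5 by -0.40 on the log2 scale relative to raw counts, with the median gene of each library set to 0. Only 1.89% of 9897 genes with over 50 counts in every library were moved further in either direction. The same scaling moved Kat2a by -0.25, Hdac2 by 0.16, Sirt1 by 0.15 and Kat2b by 0.12, and Hdac3 by 0.02. Ep300 and Ncor1, both near 0, also changed sign with the scaling and passed under none: with total counts Ep300 was at 0.0097 and Ncor1 at 0.024 on the log2 scale, and on the authors' normalized counts Ncor1 was at 0.055.

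**Figure D2:**
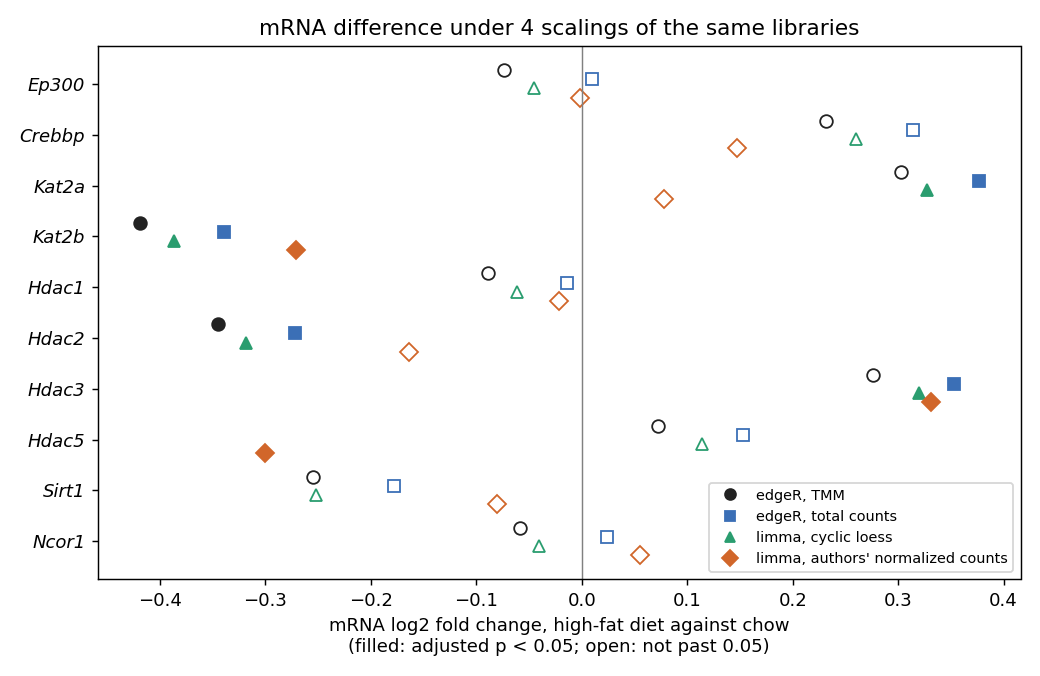
mRNA log2 fold change of each gene, high-fat diet against chow, under 4 scalings of the same libraries (edgeR with TMM factors, edgeR with total counts, limma after cyclic loess, and limma on the authors' normalized counts); filled symbols passed an adjusted p of 0.05. Kat2b is filled and below 0 under each, while Hdac5 is at 0.07 with TMM factors and at -0.30 on the authors' normalized counts.

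In all, 5 of the 10 genes had no overlap between the diets (Crebbp, Kat2a, Kat2b, Hdac2 and Sirt1), against 50.6% of all genes tested, so the count was near that of all genes. The 95% intervals of the 10 log2 fold changes ran from -0.62 at the lowest to 0.54 at the highest, and none reached a log2 of 1 in either direction. On the authors' normalized counts, 3 of the 10 passed (Kat2b, Hdac3 and Hdac5), against 31.8% of all genes in that fit. The authors' deposited table also gives adjusted p under 0.05 for these 3, against 26.8% of the genes with a value in it: Kat2b with a log2 fold change of -0.27 (adjusted p = 0.00614), Hdac3 with 0.31 (adjusted p = 0.0368) and Hdac5.

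Ratios of counts within a library do not depend on its depth or on a single scaling factor. The ratio of Kat2b to Kat2a counts was 6.67, 7.25 and 7.94 on chow and 3.77, 4.50 and 5.03 on the high-fat diet, with no overlap. On the authors' normalized counts that ratio ran from 4.86 to 5.35 on chow and from 3.60 to 4.29 on the high-fat diet, again apart. The ratio of Hdac3 to Hdac2 was 1.57, 1.34 and 1.29 on chow and 2.01, 2.18 and 2.31 on the high-fat diet, and on the normalized counts 1.35 to 1.59 and 1.88 to 2.19. The ratio of Crebbp to Ep300 was 0.524, 0.506 and 0.484 on chow and 0.632, 0.633 and 0.607 on the high-fat diet, and on the normalized counts 0.561 to 0.595 and 0.633 to 0.649. For these 3 pairs the diets were apart on both scales. That of Hdac1 to Hdac2 was 0.787, 0.963 and 1.01 on chow and 1.04, 1.10 and 1.15 on the high-fat diet. This ratio was apart on raw counts and overlapped on the normalized counts (0.793 to 1.06 and 0.999 to 1.10). The ratio of Hdac3 to Ncor1, its corepressor, overlapped, with 0.188 to 0.253 on chow and 0.238 to 0.302 on the high-fat diet, and on the normalized counts 0.253 to 0.317 and 0.310 to 0.353. The ratio of Hdac5 to Hdac3 overlapped on raw counts, with 1.04, 1.06 and 1.19 on chow and 0.882, 1.05 and 0.924 on the high-fat diet. On the normalized counts it was apart, with 1.71 to 2.11 and 1.17 to 1.32. These 6 pairs were chosen with the values of the genes known, and with 3 libraries a diet an exact permutation test cannot go below p = 0.1, so the ratios are given as values without a test.

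**Figure D3:**
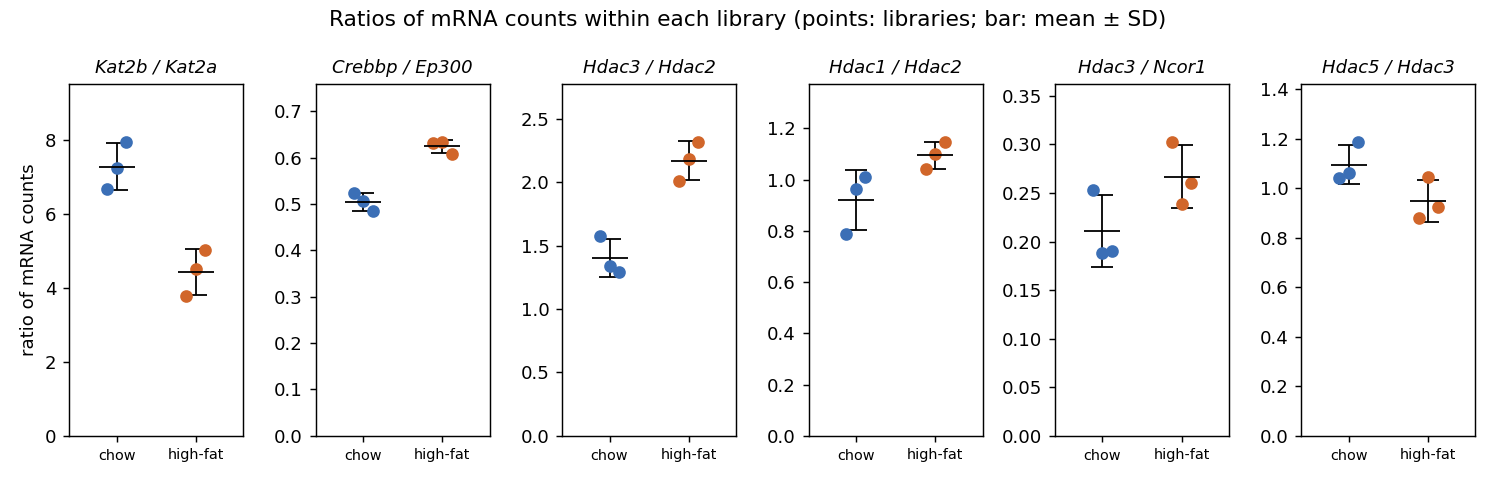
Ratio of mRNA counts of 6 pairs of genes within each library, from 0 on each vertical axis, for chow and the high-fat diet; points are libraries, the long bar is the mean and the whiskers are 1 SD. Kat2b to Kat2a lies between 6.67 and 7.94 on chow and between 3.77 and 5.03 on the high-fat diet, and Hdac3 to Hdac2 lies higher in every high-fat-diet library.

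Whether the promoters of the same genes carried more or less of the mark was asked with the H3K27ac counts, where the members had between 133 and 616 counts a library. None of the 10 passed in the edgeR test, and DESeq2 called none either. An unadjusted p under 0.05 was found for 2 of the 10, beside 2924 of all 20891 promoters. Only 0.235% of all promoters passed, 39 higher and 10 lower. The authors' deposited table gives no adjusted p under 0.05 for any of the 10, against 0.212% of the promoters with a value in it.

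Hdac2 and Sirt1 had the lowest promoter log2 fold changes. The Hdac2 promoter had 84.6, 79.5 and 87.1 CPM of H3K27ac on chow and 73.7, 70.1 and 73.7 CPM on the high-fat diet, with no overlap (log2 -0.22, SE 0.088, 95% interval -0.40 to -0.04, edgeR adjusted p = 0.256). The Sirt1 promoter had 83.9, 85.1 and 85.2 CPM on chow and 79.2, 70.7 and 72.0 CPM on the high-fat diet, also apart (log2 -0.21, SE 0.088, 95% interval -0.39 to -0.03, edgeR adjusted p = 0.291). These 2 of 10 are the genes with no overlap at promoters, against 19.5% of all promoters, so the count was near that of all promoters. Their promoter differences passed in none of 11 other settings and left-out libraries.

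At the Kat2b promoter the counts were 109.9, 102.8 and 114.8 CPM on chow and 87.1, 103.1 and 99.1 CPM on the high-fat diet. They overlapped, and the log2 fold change of -0.17 did not pass (95% interval -0.37 to 0.02, edgeR adjusted p = 0.415). Kat2a had 71.8, 89.0 and 79.7 CPM at its promoter on chow and 85.1, 82.9 and 79.3 CPM on the high-fat diet (log2 0.05, 95% interval -0.14 to 0.25, edgeR adjusted p = 0.838). Ep300 and Crebbp had promoter log2 fold changes of -0.01 (95% interval -0.20 to 0.18) and -0.08 (95% interval -0.27 to 0.11). Those of Hdac1, Hdac3 and Hdac5 were -0.06, -0.03 and -0.02, and that of Ncor1 was -0.10 (95% interval -0.30 to 0.09). Over the 10 promoters the median was -0.07, beside -0.003 for all promoters. The Hdac3 promoter was the most uneven, with a coefficient of variation of 17.0% on the high-fat diet. There its replicate 1, the shallowest library with 1967613 counts at promoters, had 66.2 CPM and the other libraries 91.9 and 88.8 CPM.

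**Figure D4:**
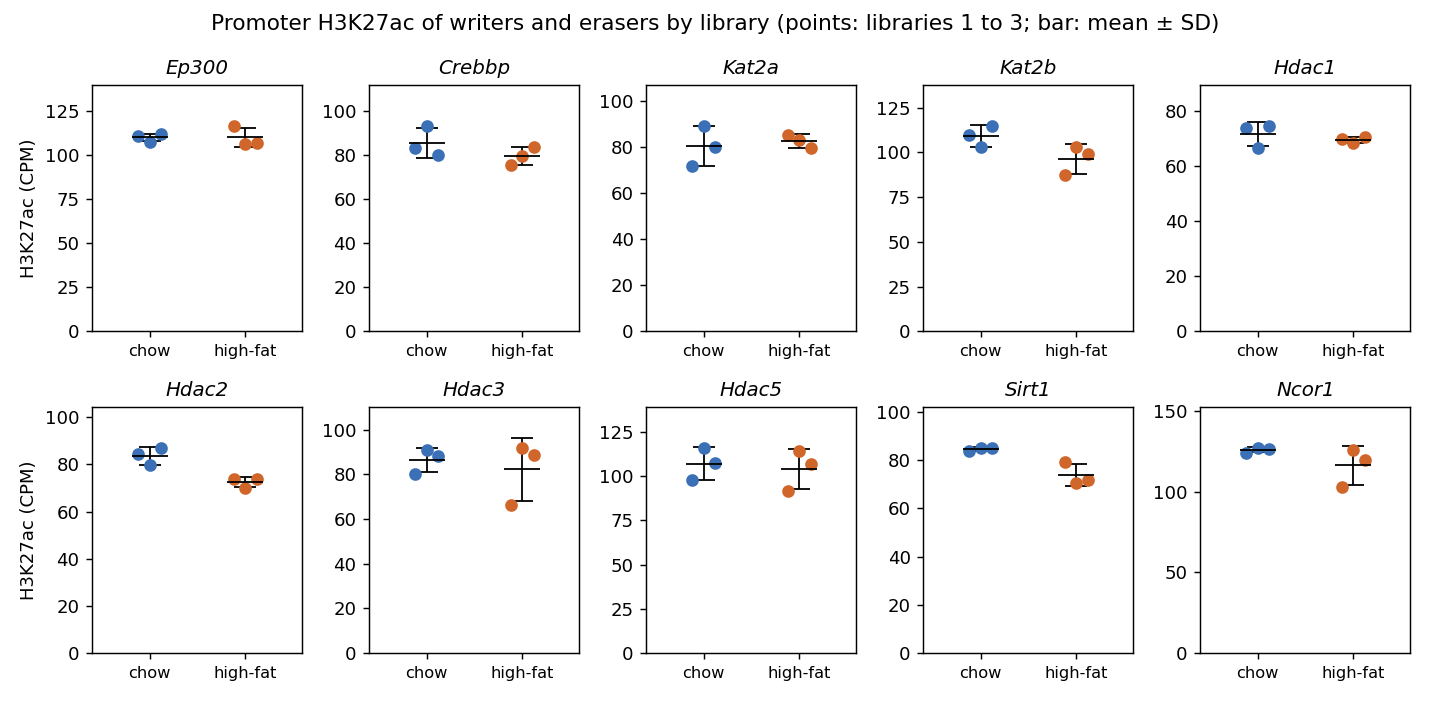
H3K27ac at the promoters of the 10 genes in each library, in CPM from 0 on the vertical axis, for chow (left) and the high-fat diet (right); points are libraries, the long bar is the mean and the whiskers are 1 SD. Hdac2 and Sirt1 are lower in all 3 high-fat-diet libraries, and the other 8 overlap.

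**Figure D5:**
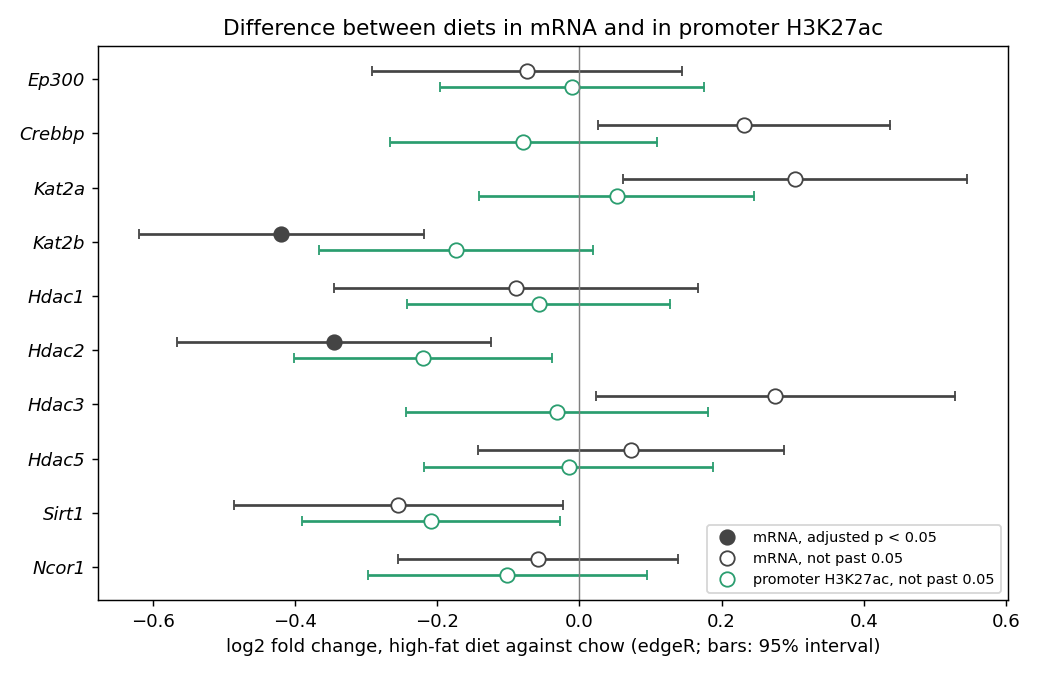
Log2 fold change of the high-fat diet against chow for mRNA and for promoter H3K27ac of each gene (edgeR), with the 95% interval as a bar; filled points passed an adjusted p of 0.05. Kat2b at -0.42 and Hdac2 at -0.34 in mRNA are the filled points, and no promoter is filled.

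The other genes of these pathways were counted in lists. Of 99 tested genes in 9 lists, 14 rose and 17 fell in mRNA, 31.3% in all. Of all genes 35.6% passed, 18.0% as higher and 17.6% as lower, and each list below is to be read beside these shares. At promoters none of 103 passed in the edgeR test and DESeq2 called none. An unadjusted p under 0.05 was found for 9 of the 103, beside 2924 of all 20891 promoters. Among 7 further zinc-dependent deacetylases, 2 rose, 1 fell and 4 did not pass. Hdac11, the class IV enzyme, had 33.6, 30.2 and 34.3 CPM on chow and 59.8, 64.4 and 67.6 CPM on the high-fat diet. It rose 1.96-fold (log2 0.97, SE 0.086, edgeR adjusted p = 0.000194), a difference above that of any of the 10 genes. Hdac7, of class IIa, rose 1.53-fold (edgeR adjusted p = 0.0129). It no longer passed if chow replicate 3 or high-fat-diet replicate 2 was dropped, nor on the authors' normalized counts (limma adjusted p = 0.166). Hdac8, of class I, was 1.71-fold lower (log2 -0.77, edgeR adjusted p = 0.0119) at low levels, with 3.77, 4.24 and 5.32 CPM on chow and 2.43, 2.63 and 2.69 CPM on the high-fat diet. Of 6 further sirtuins 2 rose and none fell: Sirt5, a mitochondrial desuccinylase, by a log2 of 0.38, and Sirt2, a mostly cytoplasmic deacetylase, by 0.35. The Sirt5 call ended in 11 of 13 alternatives, and the Sirt2 call without chow replicate 2 (adjusted p = 0.101) or 3 (adjusted p = 0.112).

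Tbl1xr1, a scaffold of the complex that holds NCOR1 and HDAC3, rose 1.36-fold (edgeR adjusted p = 0.0101), and on the normalized counts its log2 fold change was 0.70 in place of 0.44. Its call ended without chow replicate 3 (edgeR adjusted p = 0.0532).

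Of 25 subunits of the SIN3, NuRD and CoREST complexes, which carry HDAC1 and HDAC2, 2 rose, 9 fell and 14 did not pass. In all 44% passed, beside 35.6% of all genes (18.0% as higher and 17.6% as lower). The median log2 fold change was -0.22, beside 0.02 for all genes, and no test of the list was run. Mta3, a NuRD subunit, had 16.1, 15.2 and 17.0 CPM on chow and 9.14, 9.68 and 9.67 CPM on the high-fat diet, 1.69-fold lower (log2 -0.76, SE 0.096, edgeR adjusted p = 0.000811). Ing2, a SIN3 subunit that reads methylated H3K4, was 1.68-fold lower (log2 -0.75, edgeR adjusted p = 0.00371). Sap130, of SIN3, rose by a log2 of 0.41 and Mbd3, of NuRD, by 0.38, and without chow replicate 2 neither passed. The Mbd3 log2 fold change turned to -0.03 on the authors' normalized counts.

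Of 16 subunits of the SAGA and ATAC complexes, which carry GCN5 or PCAF, 1 rose, 3 fell and 12 did not pass. Tada3, an adaptor shared by both complexes, rose 1.66-fold (log2 0.73, SE 0.14, edgeR adjusted p = 0.00536), from 6.34 CPM (SD 0.909) to 10.6 CPM (SD 0.887, n = 3 per diet). Zzz3, an ATAC subunit, was 1.4-fold lower (log2 -0.49, SE 0.09, edgeR adjusted p = 0.00415). Fam48a, an older symbol of the SAGA subunit gene Supt20, was lower by a log2 of -0.38, a call that ended in 8 of 13 alternatives. Of 8 tested partners of p300 and CBP, 1 rose and 2 fell. Ppargc1a, a coactivator of the fasting response, had a log2 fold change of -0.54 and Creb1, the factor CBP is named for, -0.44. On the authors' normalized counts neither passed (limma adjusted p = 0.0558 and adjusted p = 0.269). In the authors' deposited table Ppargc1a passed (log2 -0.32, adjusted p = 0.036) and Creb1 did not (log2 -0.14, adjusted p = 0.324). The Creb1 call also ended with total counts and when either chow replicate 2 or high-fat-diet replicate 2 was dropped. Crtc1, a CREB coactivator, rose by 0.35, a call that ended in 11 of 13 alternatives. None of 11 other genes (acetyltransferases, p160 coactivators and Ep400) and none of 11 acetyl-lysine readers passed in the edgeR test. Their log2 fold changes ran from -0.24 to 0.31 and from -0.22 to 0.51. At an unadjusted p under 0.05 these were 0 and 2 genes, beside 6020 of all 12909, and DESeq2 called none in either list. On the authors' normalized counts the readers Brd2 (log2 -0.33, limma adjusted p = 0.00661) and Brpf3 (log2 -0.43, limma adjusted p = 0.0228) passed. In that fit 31.8% of all genes passed. Hat1, an acetyltransferase, passed in the authors' deposited table (adjusted p = 0.0494) but not in limma (adjusted p = 0.0559).

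Of 11 tested genes that supply or use acetyl-CoA and NAD, the cofactors of these enzymes, 4 rose, 2 fell and 5 did not pass. Nampt, which makes the NAD precursor in the salvage pathway, had 73.1, 57.5 and 63.1 CPM on chow and 103, 100.4 and 113 CPM on the high-fat diet and rose 1.63-fold (log2 0.71, SE 0.1, edgeR adjusted p = 0.00147). Parp1, which consumes NAD, rose 1.42-fold (log2 0.50, edgeR adjusted p = 0.00209). Nnmt, which methylates nicotinamide, was 1.91-fold lower (log2 -0.93, SE 0.23, edgeR adjusted p = 0.0149). Dropping chow replicate 2 ended this call (adjusted p = 0.0571). Pdhb, a subunit of the enzyme that makes mitochondrial acetyl-CoA, was lower by a log2 of -0.27, and the call ended in 5 of 13 alternatives. Of the 21 genes that the naming rule took from the lists, 8 passed in all 13 alternatives: Tada3, Zzz3, Hdac11, Hdac8, Mta3, Ing2, Nampt and Parp1.

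For each of the 10 genes the gene with the closest pattern over the 6 mRNA libraries was found among 12908 others, by the root mean square difference of log2 levels centred on each gene's mean. The closest to Kat2b was Peli1 (difference 0.029) and to Hdac2 Trip6 (0.013). The others were Ate1 for Ep300, Klf12 for Crebbp, Mrpl10 for Kat2a, Vhl for Hdac1, Cbx8 for Hdac3, Ppp6r2 for Hdac5, Actl6a for Sirt1 and Lats2 for Ncor1, with differences from 0.014 to 0.032. With 6 libraries and this many genes, close matches are common, and they are given as a description.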

How the data were processed

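mRNA and H3K27ac immunoprecipitates of liver were sequenced. Per the submitters' processing notes, TopHat 1.4.0, HTSeq, DESeq2 1.0.18 and bedtools were used for mRNA, Bowtie 0.12.7, MACS 1.4.0rc2, bedtools and DESeq2 for ChIP, on build mm9. The authors deposited raw counts per gene and per promoter, and their strand setting and promoter width are not given in the sources used here, so reads of overlapping genes cannot be told apart. The authors also deposited normalized counts (a signal, scaled per gene by a method not given here) and tables of log2 fold changes with standard errors and adjusted p-values.

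The raw counts were tested with edgeR 4.0.16 in R 4.3.3 (TMM factors, filterByExpr, quasi-likelihood F test, diet as the only term, Benjamini-Hochberg adjustment over all features, threshold 0.05), after a test on simulated data. Intervals are 95% and come from the moderated degrees of freedom. limma 3.58.1 was run on log2 of the normalized counts plus 1, and DESeq2 1.42.0, other scalings and left-out libraries were alternatives. The limma fits, and for the list genes also the replicate block and the left-out libraries, were chosen after seeing the data. Named genes are all 10 members, the up to 2 largest rises and falls past the threshold in each list, and the gene nearest in pattern to each member. The members and lists were chosen with earlier results of these data known. H3K4 methylation libraries were not used here, peaks were not assigned to genes, and levels per transcript length were not computed. The result for 1 gene of the lists is not reported here.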

Additional observations from a re-analysis of the deposited data

How the results depend on the processing

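Of the 10 genes 2 passed in mRNA with the edgeR test as described. The number was 4 with total counts (beside 4451 of 12909 genes tested) and 4 after cyclic loess (4670 of 12909), and from 1 to 3 with each library left out in turn (1 without chow replicate 2, chow replicate 3 or high-fat diet replicate 2). DESeq2, DESeq2 size factors and no count filter each gave 2, beside 4349 of 13815, 4610 of 12909 and 4460 of 17954 genes. No promoter of the 10 passed in any of 11 alternatives. With 3 libraries per diet, whether the replicate numbers pair the libraries cannot be told. Same-numbered mRNA libraries had correlations of 0.08, -0.06 and 0.15, and for 2 of 3 numbers the own number was highest. At promoters the correlations were 0.09, -0.005 and 0.04, and the own number was highest for replicate 1 only. A replicate block gave 3 mRNA calls among the 10, adding Kat2a (adjusted p = 0.0398), beside 4462 of 12909 genes. With this block there was no promoter call among the 10, and 470 promoters passed in all in place of 49. Left-out libraries gave from 0 to 736 promoters in all and from 2899 of 13211 to 5163 of 13094 genes in mRNA. Without a count filter 71 promoters passed. With total counts 63.0% of mRNA calls were higher, in place of 50.5%, and the median gene moved from 0.02 to 0.10. Some log2 fold changes changed sign. Of these, Mbd3 passed in the edgeR test as described (0.38), Hdac5 passed at -0.30 on the authors' normalized counts, and the others passed on neither side. In mRNA, total counts gave 0.0097 for Ep300 and 0.024 for Ncor1, and the authors' normalized counts gave 0.055 for Ncor1 and -0.035 for Mbd3. With each library left out in turn, mRNA values ran from -0.15 to 0.0050 for Ep300, from -0.0058 to 0.14 for Hdac5 and from -0.11 to 0.0077 for Ncor1. At promoters, total counts gave 0.015 for Ep300 and 0.014 for Hdac5. With each library left out in turn, promoter values ran from -0.047 to 0.011 for Ep300, from -0.024 to 0.11 for Kat2a, from -0.11 to 0.073 for Hdac3 and from -0.084 to 0.056 for Hdac5. The cause was not tested. Summing several promoters of a gene was not run, since each symbol has 1 promoter.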
